A study of Homo sapiens with 4 samples.

Results

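The RBM genes code for proteins with RNA-binding motifs, and their mRNAs were examined here as targets of the helicase DHX36. Members were the rows of the deposited gene table whose symbol is RBM with a number, RBMX or RBMS, a rule that reads the name only and no measured value. It found 47 of 26490 genes, of which 45 are protein-coding, while RBMS3-AS1 and RBMS3-AS3 are antisense RNAs that share the name. The data are PAR-CLIPs in HEK293, a human embryonic kidney cell line. In this method, 4-thiouridine in RNA is crosslinked to the bound protein with UV light, and the crosslinked reads are grouped into clusters on the transcripts. Tagged DHX36 was expressed from stable, tetracycline-inducible lines, which the labels call HA-Flag-DHX36-iso2 and HA-Flag-DHX36-iso1-E335A. They are named FH-DHX36 and FH-DHX36-E335A below. E335A is a mutation that inactivates the helicase, so that isoform and mutation cannot be told apart. In each group (n = 2), tetracycline at 500 ng per ml was given for 15 h before the cells were crosslinked at 365 nm for 5 min and the protein was purified with anti-FLAG beads.

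DHX36 is a DEAH-box helicase that binds and unwinds G-quadruplexes, stacked structures that form where runs of guanines lie close together in RNA or DNA. RBM proteins share the RNA recognition motif and act mostly in the nucleus, in splicing, the exon junction complex, RNA methylation and nuclear RNA decay, while some act on the stability or translation of mRNAs. The family is grouped by name and domain and not by common descent, so that members differ widely in size and function. All values below are of RBM mRNAs bound by DHX36, and say nothing of the RBM proteins.

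The table holds 1 value per gene and PAR-CLIP, in which the replicates are combined. No replicate spread could be computed, no test between the PAR-CLIPs was possible, and intervals given below are 95% intervals that cover counting error only. Crosslinked reads include PCR copies, which are not independent molecules. The FH-DHX36 PAR-CLIP held 2160413 crosslinked reads and the FH-DHX36-E335A PAR-CLIP 8752127, which is 4.05 times as many. The DHX36 gene itself carried 19208 and 30909 reads, of which 82.1% and 64.8% lay in the coding sequence (CDS) that the transgenes also carry. HEK293 marker genes were not checked, since a gene without a cluster has no expression value in the table.

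RBM mRNAs carried DHX36 clusters in both PAR-CLIPs. At least 1 FH-DHX36 cluster was listed for 23 of 47 members, which is 48.9% (Wilson interval 35.3 to 62.8), against 22.4% of all genes in the table. For FH-DHX36-E335A the number was 34 of 47, or 72.3% (58.2 to 83.1), against 34.5% of all genes. All genes include many that may not be expressed in HEK293, and the table used here gives no expression value for genes without a cluster, so that binding and expression cannot be told apart in these shares. When clusters had to lie in an exonic region, meaning a UTR or the CDS, 20 and 32 members were bound, against 19% and 32.2% of all genes.

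The 23 members bound by FH-DHX36 were all bound by FH-DHX36-E335A as well. The other 11 bound members had clusters in the FH-DHX36-E335A PAR-CLIP alone, and none had them in the FH-DHX36 PAR-CLIP alone. Among all genes with an FH-DHX36-E335A cluster, 37.9% lacked an FH-DHX36 cluster. The 11 were weakly covered, with 13 to 306 reads and a median of 58, while the 23 had a median of 829 FH-DHX36-E335A reads and a range from 68 to 8579. RBM23, a splicing factor related to RBM39, had the most reads of the 11. At an equal share of the total, its 306 reads would correspond to 75.5 FH-DHX36 reads, where 0 were listed. The next were RBM47, a cofactor of APOBEC1 in mRNA editing, with 188 reads in 1 cluster, and RBMS1 with 163 reads in 4 clusters. At the low end were RBM20, a splicing regulator of heart muscle, with 32 reads, RBMS3 with 29 reads and RBM44 with 13 reads.

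No cluster was listed in either PAR-CLIP for 13 members. They include RBM3, a cold-inducible protein, RBM8A, the Y14 core subunit of the exon junction complex, RBM10, a splicing regulator, RBM15B, a paralog of the methylation cofactor RBM15, and RBM19, a nucleolar protein. RBM43, RBM45, RBM46, RBM48, RBMXL2, RBMXL3 and both antisense RNAs were the others. Whether these RNAs were expressed in HEK293 was not tested.

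**Figure D1:**
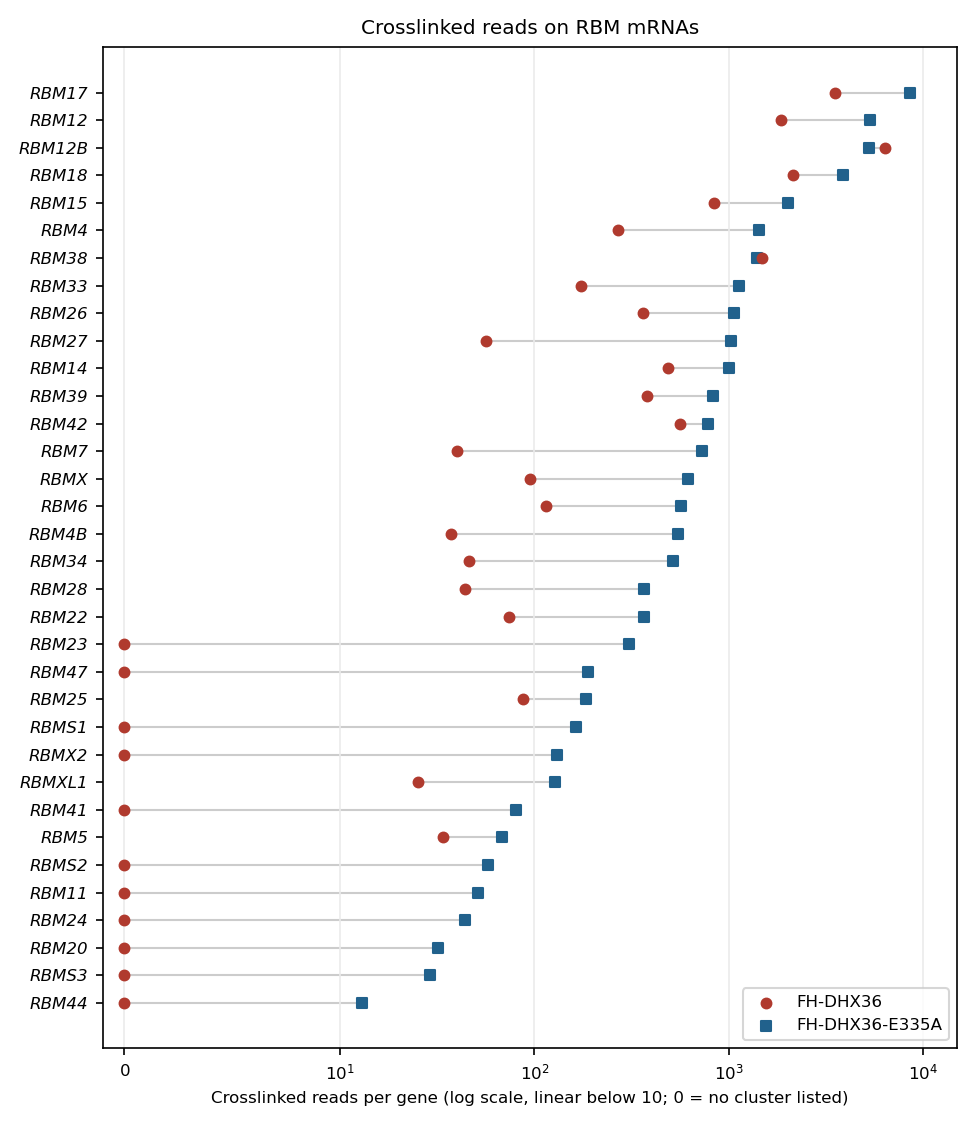
Crosslinked reads per gene on a log axis that is linear below 10, for the 34 RBM genes with a cluster, with circles for FH-DHX36 and squares for FH-DHX36-E335A, each 1 value of combined replicates. RBM17, RBM12, RBM12B and RBM18 lie at the top in both, and 11 genes have FH-DHX36-E335A reads only.

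The reads of the family rested on few members. The 47 genes together held 93 clusters and 19112 reads for FH-DHX36, and 285 clusters and 39040 reads for FH-DHX36-E335A. The 5 members with most reads held 80.5% of the first and 64.4% of the second sum. The family's part of all crosslinked reads was 0.885% for FH-DHX36 (0.872 to 0.897) and 0.446% for FH-DHX36-E335A (0.442 to 0.451). Without RBM12B, which alone carried 33.5% of the family's FH-DHX36 reads, the FH-DHX36 value was 0.589%. The FH-DHX36-E335A value of 0.446% still includes RBM12B. Without RBM12B and RBM17, a setting chosen after seeing the data, the values were 0.426% and 0.288%. In clusters, the family's parts were 0.555% and 0.473%, and their intervals of 0.454 to 0.68 and 0.422 to 0.531 overlapped. A bound member had a median of 173 FH-DHX36 reads and 534 FH-DHX36-E335A reads, against 121 and 326 over all bound genes.

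RBM17, also known as SPF45, is a splicing factor that takes part in the recognition of 3′ splice sites together with U2 snRNP proteins. It had the most FH-DHX36-E335A reads of the family, 8579 in 12 clusters, and the second most FH-DHX36 reads, 3513 in 5 clusters. The position of these reads in the annotation differed between the PAR-CLIPs. In FH-DHX36, 3468 reads lay in 3 CDS clusters and 27 in the 3′UTR. In FH-DHX36-E335A, 346 reads lay in 5 CDS clusters and 928 in 4 3′UTR clusters, while 7279 reads lay in 2 clusters that the table puts in none of the named regions. The table gives no cluster positions, so that it cannot be told apart whether these are the same sites under another annotation. Counted over all reads, the share of RBM17 was 1.66 times higher in FH-DHX36 (1.59 to 1.73). Counted over exonic reads, it was 11.0 times higher. A pseudogene, RBM17P4, shares 7.66% of the 25-nt words of the RBM17 mRNA.

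The CDS of RBM17 is 1206 nt long and holds 4 matches to a G-run pattern. The pattern was searched on the sense strand as 4 runs of at least 2 guanines with 1 to 7 nt between runs, without overlap. The nt between runs may themselves be guanines, so that 1 long tract can count as more than 1 run. The 3′UTR of 1891 nt holds none, whereas 78.9% of the 2318 annotated 3′UTRs within 20% of that length hold at least 1. The CDS match with runs of at least 3 guanines is shown because most FH-DHX36 reads of this mRNA were assigned to the CDS. It lies on the plus strand of chromosome 10 in GRCh37, with guanine runs in capitals:
RBM17 CDS, chr10:6154214-6154233: GGGaGGGccaGGGtctGGGG
Such a match is a description of the sequence and not a mapped binding site.

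RBM12 and RBM12B are paralogs with several RNA recognition motifs. RBM12 had the most clusters of the family in both PAR-CLIPs, 14 for FH-DHX36 with 1858 reads and 37 for FH-DHX36-E335A with 5375 reads. Its reads were divided between CDS and 3′UTR, with 1087 and 749 in FH-DHX36 and 2203 and 2442 in FH-DHX36-E335A. Per length, the CDS carried 388 FH-DHX36 reads per kb and the 3′UTR 208, and for FH-DHX36-E335A the values were 787 and 679. The CDS of RBM12 holds 9 matches and its 3′UTR of 3599 nt holds 1. Of the CDS matches, 7 start between nucleotides 2221 and 2476 of the CDS. Examples from this stretch and from the 3′UTR are shown from the minus strand of chromosome 20, with the guanine runs in capitals:
RBM12 CDS, chr20:34240882-34240904: GGGccatcGGGatttGGaGGGGG
RBM12 CDS, chr20:34241009-34241024: GGattaGGaGGcGGGG
RBM12 3′UTR, chr20:34239208-34239230: GGtattcaGGacactaaGGcaGG
RBM12 overlaps CPNE1 on the same strand, and 7.11% of its 25-nt words occur in CPNE1 transcripts. CPNE1 itself was listed with 2546 FH-DHX36 and 3089 FH-DHX36-E335A reads.

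RBM12B differed from RBM12 in its balance of regions. It had 6396 FH-DHX36 reads in 9 clusters, of which 5998 lay in the 3′UTR, and 5294 FH-DHX36-E335A reads in 29 clusters, of which 4203 did. Per kb, its 3′UTR carried 1142 FH-DHX36 reads and its CDS 72.9. RBM12B thus had fewer clusters but more reads in the FH-DHX36 PAR-CLIP.

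RBM18 is a small protein of 1 RNA recognition motif. Its mRNA is mostly 3′UTR, 4262 nt of it, next to 573 nt of CDS. All 2135 FH-DHX36 reads lay in 2 clusters of the 3′UTR. In FH-DHX36-E335A, 3813 of 3892 reads lay in 12 clusters of the 3′UTR and 79 in 2 clusters of the CDS. The 3′UTR thus carried 501 and 895 reads per kb. It holds 2 G-run matches, which are shown because nearly all reads of this mRNA were assigned to the region, and 91.9% of 1539 3′UTRs of like length hold at least 1, with a median of 5. The matches lie far apart, on the minus strand of chromosome 9:
RBM18 3′UTR, chr9:125003901-125003915: GGctGGttGGtttGG
RBM18 3′UTR, chr9:125000353-125000376: GGccaGGGtcacctGGttaatGGG

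RBM38 is a target of p53 that binds uridine-rich elements and acts on mRNA stability. It had nearly equal numbers of reads in the PAR-CLIPs, 1483 in 4 clusters for FH-DHX36 and 1408 in 6 clusters for FH-DHX36-E335A, despite the difference in totals. All FH-DHX36-E335A reads lay in the 3′UTR. In FH-DHX36, 1270 reads lay there and 213 reads in 1 cluster of the 5′UTR, where no FH-DHX36-E335A cluster was listed. Reads are listed only within clusters, so that a missing cluster sets no upper limit on the share. The 3′UTR of RBM38 is the richest in guanine among the bound members, with 29.9% G, and holds 9 matches in 1487 nt, against a median of 2 in 2242 3′UTRs of like length. The 5′UTR of 186 nt holds 3 matches. In the 3′UTR match shown, guanines of the long tracts also serve as spacers between runs. A match of each region is shown from the plus strand of chromosome 20:
RBM38 5′UTR, chr20:55966498-55966517: GGcgcgcacGGcGGGacGGG
RBM38 3′UTR, chr20:55984213-55984228: GGGGGGcagcGGGGGG

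RBM15 recruits the m6A methyltransferase complex to its RNA targets. Its mRNA had no cluster listed in either UTR in either PAR-CLIP, which likewise sets no upper limit on the share of reads there. FH-DHX36 gave 838 reads in 10 clusters, 779 of them in the CDS and 59 in 1 intronic cluster. FH-DHX36-E335A gave 2017 reads in 16 clusters, 1234 of them in 6 CDS clusters and 737 in 9 intronic clusters. The CDS of 2934 nt holds 12 matches, against a median of 6 in 2095 coding sequences of like length. The match with runs of at least 3 guanines lies on the plus strand of chromosome 1:
RBM15 CDS, chr1:110883400-110883423: GGGtGGGaggcctGGGaccttGGG
RBM42, a splicing-related protein found with the tri-snRNP, also had no UTR reads in either PAR-CLIP. It had 415 of 562 FH-DHX36 reads and 281 of 779 FH-DHX36-E335A reads in the CDS, and the rest lay outside the named regions. It was the single member with more FH-DHX36 clusters, 6 against 4. Its CDS holds 11 matches, and its 3′UTR of 131 nt holds none.

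RBM4, a regulator of splicing and translation, had 1437 FH-DHX36-E335A reads, of which 878 lay in the 3′UTR and 431 in introns. In FH-DHX36 it had 270 reads, of which 132 lay in 1 cluster of the 5′UTR, 117 in an intron and none in the 3′UTR. RBM4 shares 96.9% of its 25-nt words with the readthrough gene RBM14-RBM4, which was listed with 266 and 29 reads, so that reads may have been divided between these rows. RBM4B, its paralog on the opposite strand, carried intronic reads only, 548 in 3 clusters for FH-DHX36-E335A and 37 in 1 cluster for FH-DHX36. RBM4 and RBM4B overlap over 3377 nt of the genome, and whether reads could be assigned to the wrong gene there was not tested.

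RBM14 is a coactivator and paraspeckle protein. Its 1009 FH-DHX36-E335A reads were 808 of the 3′UTR and 201 of the CDS. Its 487 FH-DHX36 reads were 261 of the 3′UTR, 168 of the CDS and 58 outside the named regions. The 3′UTR of 3266 nt holds 17 matches, against a median of 4 in 1972 3′UTRs of like length. RBM33 had the most matches of the family, 24 in a 3′UTR of 6439 nt. It had 946 of 1131 FH-DHX36-E335A reads in the 3′UTR, but 19 of 173 FH-DHX36 reads, of which 154 were intronic. Counted over exonic reads, the FH-DHX36 share of RBM33 was 0.0749 times the FH-DHX36-E335A share. A 3′UTR match with long guanine runs is shown for RBM14 on chromosome 11 and RBM33 on chromosome 7, both on the plus strand:
RBM14 3′UTR, chr11:66395572-66395593: GGGatgctaGGGttGGGtGGGG
RBM33 3′UTR, chr7:155571917-155571934: GGGaGGGaGGGGGGtGGG

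RBM26 and RBM27 are paralogs that act with the poly(A) tail exosome targeting connection in nuclear RNA decay. Both had about the same number of FH-DHX36-E335A reads, 1072 in 15 clusters and 1024 in 16 clusters. In FH-DHX36 they differed, with 364 reads in 5 clusters on RBM26 and 56 reads in 2 clusters on RBM27. RBM27 had 604 FH-DHX36-E335A reads on its 3′UTR and 420 on its CDS, whereas RBM26 had 80 and 492, with 478 outside the named regions. RBM7, which belongs to the nuclear exosome targeting complex, had 733 FH-DHX36-E335A reads and 40 FH-DHX36 reads, of which 548 and 40 lay outside the named regions. Of the 25-nt words of RBM27, 45.2% occur in transcripts of other genes, nearly all of them in ENSG00000275740. This gene overlaps RBM27 on the same strand and has no row of its own. For RBM7 the value was 21.9%, with 11.4% in ENSG00000255663 and 10.7% in RBM7P1. ENSG00000255663 also overlaps on the same strand and has no row. Whether this affected their reads was not tested.

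RBM39, a splicing factor and the target of aryl sulfonamide degraders, was bound in the 5′UTR in both PAR-CLIPs, with 150 reads in 2 FH-DHX36 clusters and 150 reads in 3 FH-DHX36-E335A clusters. These were 39.5% of its 380 FH-DHX36 reads and 18.1% of its 829 FH-DHX36-E335A reads. Its paralog RBM23 had no FH-DHX36 cluster. Among the related splicing regulators RBM5, RBM6 and RBM10, RBM6 had 115 and 568 reads, RBM5 had 34 and 68, and RBM10 had none. All 115 FH-DHX36 reads of RBM6 lay in the CDS. Of its 568 FH-DHX36-E335A reads, 258 lay in the CDS, 46 in the 3′UTR and 264 outside the named regions. RBM5 had CDS reads alone, and 13.7% of its 25-nt words are shared with RBM6. RBMX, also called hnRNP G, had 95 and 618 reads, and its retrogene copy RBMXL1 had 25 and 127. These genes share 44.7% of the RBMX words and 29.1% of the RBMXL1 words, so that their reads are uncertain between the copies. RBMS1, RBMS2 and RBMS3 had 163, 58 and 29 FH-DHX36-E335A reads and no FH-DHX36 cluster.

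Of the remaining splicing-related members, RBM22, a spliceosome component, had 366 FH-DHX36-E335A reads and 74 FH-DHX36 reads, mainly in the 3′UTR. RBM25 had 184 and 87, and 69 of its 87 FH-DHX36 reads were intronic. The nucleolar proteins RBM28 and RBM34 had 368 and 520 FH-DHX36-E335A reads and 44 and 46 FH-DHX36 reads. On RBM34, 272 FH-DHX36-E335A reads lay in the CDS, 89 in introns and 159 outside the named regions. Its 46 FH-DHX36 reads were all intronic. RBM34 overlaps ARID4B on the same strand, and 75.3% of its 25-nt words occur in ARID4B transcripts, so that its reads are uncertain. RBMX2, a spliceosome component, had 130 FH-DHX36-E335A reads, 96 of them in the CDS.

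Exonic reads of the family lay mainly in 3′UTRs in both PAR-CLIPs, but this rested on few genes in FH-DHX36. Of 17736 exonic FH-DHX36 reads, 60.2% lay in 3′UTRs (59.4 to 60.9), 37.0% in CDSs and 2.79% in 5′UTRs. The values for all genes were 51.4%, 38.0% and 10.7%. Without RBM12B, the 3′UTR part fell to 40.6% and the CDS part was 55.1%. Without RBM12B and RBM17, which carried most of the remaining CDS reads, the 3′UTR part was 57.9% and the CDS part 35.9%. Of 26135 exonic FH-DHX36-E335A reads, 70.8% lay in 3′UTRs (70.3 to 71.4), 28.5% in CDSs and 0.708% in 5′UTRs, against 71.9%, 22.9% and 5.21% for all genes. Per kb of 5′UTR, bound members carried 127 FH-DHX36 reads, against 138 over all bound genes, and 28.0 FH-DHX36-E335A reads, against 180. Per kb of CDS and 3′UTR, they carried 148 and 172 FH-DHX36 reads when pooled, against 56.4 and 63.6. Of these, RBM17 held 3468 of 6570 CDS reads and RBM12B 5998 of 10671 3′UTR reads. Among genes with a cluster in the region, the FH-DHX36 median per kb was 34.1 against 50.5 for the CDS. For the 3′UTR it was 68.1 against 55.1. The pooled FH-DHX36-E335A values were 120 and 180, against 88.6 and 232. Its medians over genes with a cluster in the region were 114 against 70.1 for the CDS and 59.5 against 128 for the 3′UTR. The smaller 5′UTR part in FH-DHX36 thus went with more pooled reads per kb elsewhere, but not with a higher CDS median.

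Counted by clusters, CDSs held most exonic FH-DHX36 sites of the family, 45 of 72 or 62.5% (51.0 to 72.8), against 38.3% over all genes. Their 3′UTRs held 23 clusters, or 31.9% (22.3 to 43.4), against 51.5%. CDSs made up 40.3% of the exonic length of the bound members. Of these 45 clusters, 10 were on RBM12, 9 on RBM15 and 4 each on RBM12B, RBM14 and RBM42. In FH-DHX36-E335A, CDSs held 90 of 224 exonic clusters, or 40.2% (34.0 to 46.7), against 35.7%, and 3′UTRs held 57.6% (51.0 to 63.9), against 59.2%. Among members with at least 50 exonic reads, more than 50% of these reads lay in the 3′UTR in 6 of 15 for FH-DHX36 and in 21 of 29 for FH-DHX36-E335A. Over all genes with at least 50 exonic reads, the shares were 49.0% and 65.8%. More than 50% lay in the CDS in 7 of these members for each PAR-CLIP, where the shares over all genes were 37.2% and 26.4%. More than 50% lay in the 5′UTR in RBM39 and RBM4, or 2 of 15, for FH-DHX36 and in 0 of 29 for FH-DHX36-E335A, against 12.0% and 4.36%.

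Reads outside the named regions made up 3.65% of the family's FH-DHX36 reads and 27.5% of its FH-DHX36-E335A reads, of which RBM17 held the 7279 named above out of 10741. The shares over all genes were 16.7% and 21.4%.

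**Figure D2:**
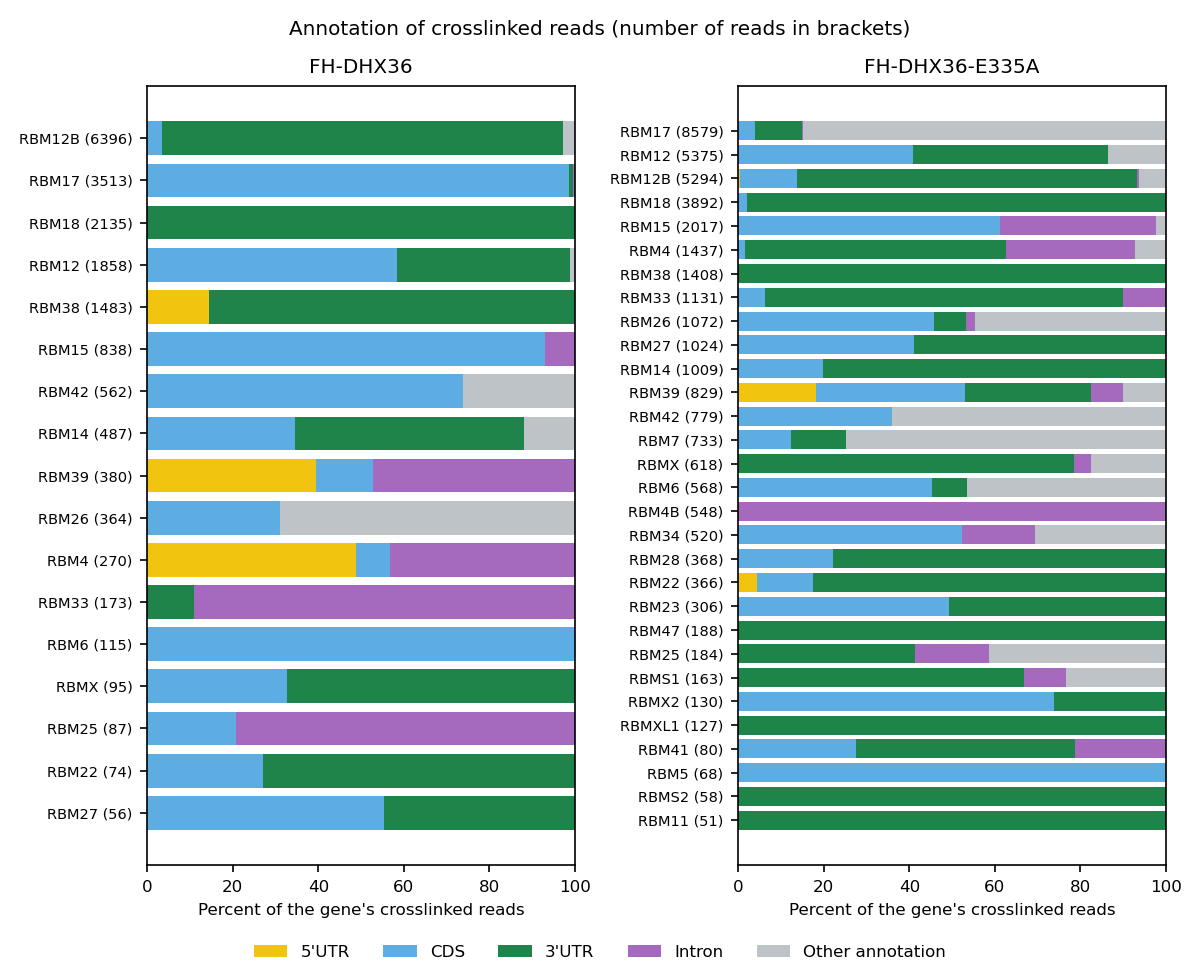
Percent of each gene's crosslinked reads in the 5′UTR, CDS, 3′UTR, introns and other annotation, for RBM genes with at least 50 reads in FH-DHX36 (left) and FH-DHX36-E335A (right), ordered by reads. RBM18 and RBM38 are mainly 3′UTR in both, RBM15 has no UTR reads, and RBM17 is mainly CDS on the left and mainly other annotation on the right.

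NXPM, the crosslinked reads scaled to the PAR-CLIP's total and divided by RNA abundance, gave much the same leading members. It corrects for expression but not for the length of the mRNA. The highest NXPM belonged to RBM12B, with 1845 in FH-DHX36 and 377 in FH-DHX36-E335A, at a recovered abundance of 1.60. This abundance is on the scale of the RNA-seq values by which the authors divided, which was not itself in the columns used here. RBM18 followed in FH-DHX36 with 203, and it had 91.4 in FH-DHX36-E335A. RBM12 had 145 and 104, and RBM17 had 131 and 79.0. These 4 of 23 bound genes were the members above an NXPM of 100 in FH-DHX36, a level passed by 6.78% of all bound genes. In FH-DHX36-E335A, 2 of 34 bound members passed it, RBM12B and RBM12, against 5.18% of all bound genes. RBM38 had 44.7 and 10.5, RBM15 had 40.2 and 23.9, and RBM27 had 7.24 and 32.7. An FH-DHX36-E335A NXPM of 61.7 was listed for RBM44, but it rests on 13 reads and a recovered abundance of 0.0231.

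Abundant members had low NXPM. Since NXPM is divided by abundance, this relation is in part built in and is no separate result on binding. RBM42 was the most abundant member recovered, at 105.8, and its NXPM was 2.46 and 0.841. RBMX at 59.7 had 0.736 and 1.18, RBM4 at 51.0 had 2.45 and 3.22, and RBM39 at 45.5 had 3.87 and 2.08. Over the family, the median NXPM of bound members was 7.24 in FH-DHX36 and 9.66 in FH-DHX36-E335A, against 7.76 and 5.61 over all bound genes with a recovered abundance above 0. By NXPM, 11 of 23 and 20 of 34 bound members lay above the median of all bound genes. Regional NXPM was highest in the 3′UTR for RBM12B, at 4499.7 in FH-DHX36 and 561 in FH-DHX36-E335A, and for RBM18, at 528 and 168. In the CDS of FH-DHX36 it was highest for RBM17 at 456, RBM12 at 299 and RBM12B at 222.

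**Figure D3:**
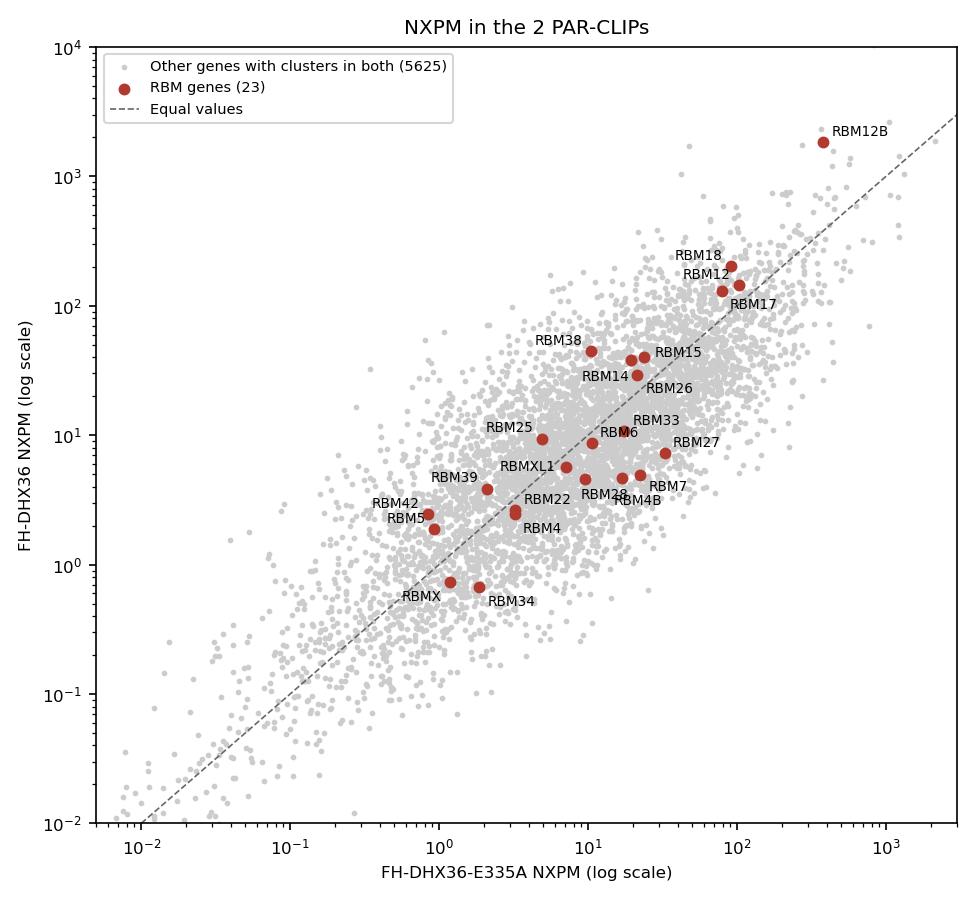
NXPM of FH-DHX36-E335A (x axis) and FH-DHX36 (y axis) on log scales, with the 23 RBM genes bound in both as large points over 5625 other genes, and a dashed line of equal values; 36 genes lie outside the axes. RBM12B lies near the top, RBM18, RBM12 and RBM17 follow, and RBM42, RBM5, RBMX and RBM34 lie at the low end.

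The share of crosslinked reads of each member was compared between the PAR-CLIPs, which equals the comparison of NXPM because both are divided by the same abundance. Over the 23 members bound in both, the ratio of the FH-DHX36 to the FH-DHX36-E335A share had a median of 1.38, and it was 0.921 over all 5669 such genes. The ratio was above 1 for 12 members, which is 52.2%, against 46.6% of all genes. It was above 2 for 5 members, where 24.8% of all genes are, and the inverse was above 2 for another 5, where 28.6% are. The family was therefore spread to both sides, as were all genes.

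The highest ratios were 4.89 for RBM12B (4.72 to 5.08), 4.27 for RBM38 (3.96 to 4.59) and 2.92 for RBM42 (2.62 to 3.26). RBM18 had 2.22 (2.11 to 2.34), and RBM5 had 2.03 with a wide interval of 1.30 to 3.10. The lowest were 0.221 for RBM7, 0.222 for RBM27, 0.274 for RBM4B, 0.358 for RBM34 and 0.484 for RBM28. Of these, RBM27 alone had at least 50 reads in each PAR-CLIP, and its interval was 0.166 to 0.290. RBM33 and RBMX, at 0.620 and 0.623, were next among the members with that many reads. RBM12B and RBM38 were also the members with more FH-DHX36 reads in absolute number. The values and their order depended on the quantity counted. By clusters, RBM42 led with 5.39, RBM38 had 2.40 and RBM12B had 1.12. By exonic reads, RBM17 led with 11.0, followed by RBM42 with 5.93, RBM12B with 5.06 and RBM38 with 4.23. The direction also turned for some members. By clusters, the ratio was 0.514 for RBM18, 1.20 for RBM4B and RBMXL1 and 1.54 for RBM22. By exonic reads, it was 0.793 for RBM26, 0.951 for RBM25 and 1.52 for RBM6. Counted over all reads, the intervals of RBMXL1 (0.497 to 1.23), RBM22 (0.629 to 1.05) and RBM6 (0.665 to 1.004) included 1. Their direction was thus not settled by all reads. The ratios of RBM12 and its paralog RBM12B were 1.40 and 4.89, and those of RBM26 and its paralog RBM27 were 1.38 and 0.222, counted over all reads.

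**Figure D4:**
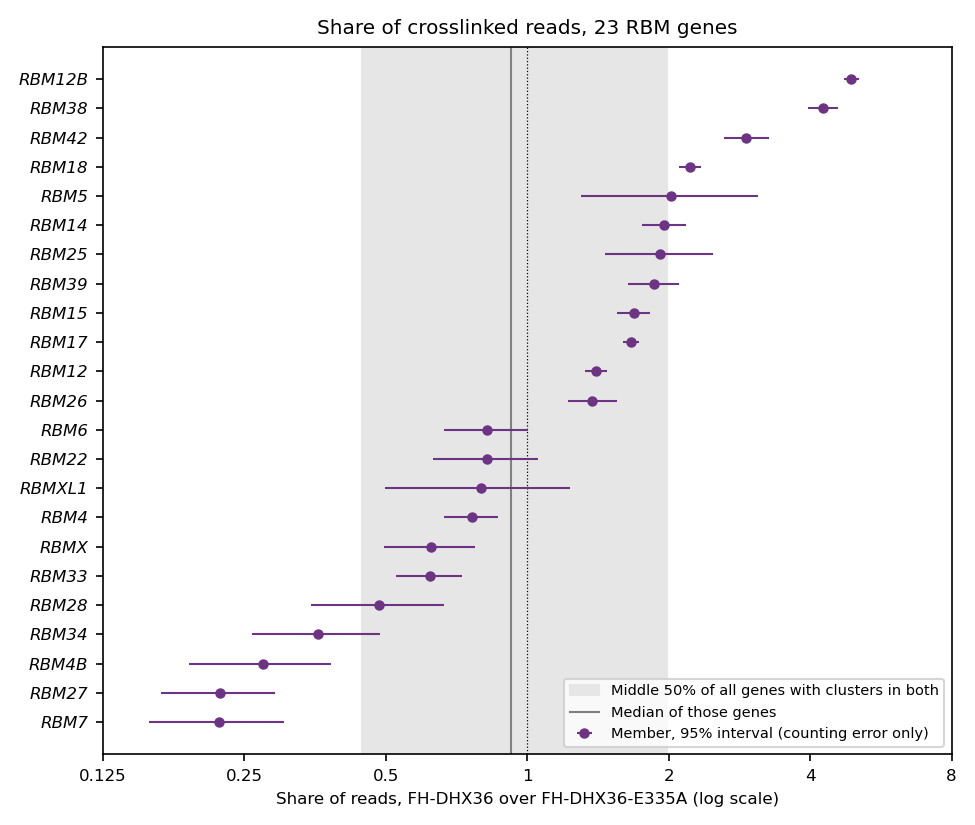
Ratio of the FH-DHX36 to the FH-DHX36-E335A share of crosslinked reads on a log axis, for 23 RBM genes, with 95% intervals that cover counting error only. The grey band is the middle 50% of all genes bound in both (0.445 to 1.99), the grey line is their median (0.921) and the dotted line marks 1. RBM12B, RBM38, RBM42, RBM18 and RBM5 lie right of the band and RBM34, RBM4B, RBM27 and RBM7 left of it.

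The order of the members was similar in the PAR-CLIPs. Across the 23 members, Spearman's rho was 0.864 for reads, 0.609 for clusters and 0.869 for NXPM, and across all 5669 genes it was 0.630, 0.496 and 0.789. The points are genes and not replicates, and no p-value was computed. Both values of a gene share its expression and length, and both NXPM values share the same abundance.

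The members were also counted by role, in small groups chosen with earlier results of these data known and compared without a test, beside 34.5% of all genes with an FH-DHX36-E335A cluster and 22.4% with an FH-DHX36 cluster. Of 15 splicing regulators, 14 had an FH-DHX36-E335A cluster and 10 an FH-DHX36 cluster, with median reads of 457 and 105. Of 9 members that act on mRNA stability or translation, 7 and 2 were bound, and the 2 bound by FH-DHX36 were RBM38 and RBM33. Of 8 members that are subunits of defined complexes, 5 were bound in each. The groups overlap. RBM17 and RBM22 were counted both as splicing regulators and as complex subunits, and RBM24 and RBM38 both as splicing regulators and under stability. RBM26 and RBM27 were bound in each, and of 3 nucleolar members, 2 were.

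Outside the family, 33 genes for partners of RBM proteins were all listed with an FH-DHX36-E335A cluster, and 25 with an FH-DHX36 cluster, where 34.5% and 22.4% of all genes are. All genes include many that may not be expressed, as said above. Those of U2-associated factors, which act with RBM17, were bound in 7 of 7 in both. SF1, the branchpoint-binding protein, had 4982 FH-DHX36 and 13028 FH-DHX36-E335A reads, and U2AF1, a subunit of the 3′ splice site factor U2AF, had 2687 and 11234. Among the m6A writer genes, which act with RBM15, 6 of 6 were bound in FH-DHX36-E335A and 4 in FH-DHX36, and CBLL1 had the highest NXPM, 76.6 and 148. Among partners of RBM8A in the exon junction complex, 4 of 4 were bound in both, although RBM8A had no cluster. MAGOH, which forms a dimer with the RBM8A protein, had 789 and 6589 reads. Of 8 minor spliceosome genes, 5 and 8 were bound, with SNRNP48 at an NXPM of 109 and 191. The median NXPM of bound partners was 9.87 and 13.1.

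With runs of at least 2 guanines, RBM 3′UTRs held fewer G-run matches than the 3′UTRs of all bound genes. With runs of at least 3, the shares were close for FH-DHX36 and turned for FH-DHX36-E335A. At least 1 match was found in the 3′UTR of 11 of 23 members bound by FH-DHX36 (47.8%) and 19 of 34 bound by FH-DHX36-E335A (55.9%), against 75.2% and 71.5% of all bound genes with a coding transcript. In the longest transcripts, 14 and 22 bound members held a match, and the share over all genes was not computed for these. With runs of at least 3 guanines, the direction was the opposite for FH-DHX36-E335A, with a match in 8 of 34 members (23.5%) against 15.7%, and for FH-DHX36 it was found in 4 of 23 (17.4%) against 18.6%. Per kb of 3′UTR, there were 1.24 and 1.16 matches, against 1.90 and 1.72. The median guanine content of the 3′UTRs was 18.7% and 18.6%, against 21.3% and 20.7%. In the CDS, 21 of 23 and 30 of 34 members held a match, against 87.6% and 86.0%. Per kb of CDS, however, members held fewer matches, 2.36 and 2.26 against 2.92 and 2.62. Of the 11 coding members without a cluster, 8 held a 3′UTR match, with a median of 5, against a median of 1 in the 34 bound members. RBM3 had 14, RBM8A 13 and RBM15B 9 matches without a cluster. RBM17, RBM25, RBM26 and RBM7 had none in the 3′UTR and were bound. These differences between gene lists are descriptions and were not tested. The matches were counted in GENCODE 44 transcripts, whose 3′UTRs can be longer than those of the authors' annotation, as in RBM28 with 13112 nt.

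**Figure D5:**
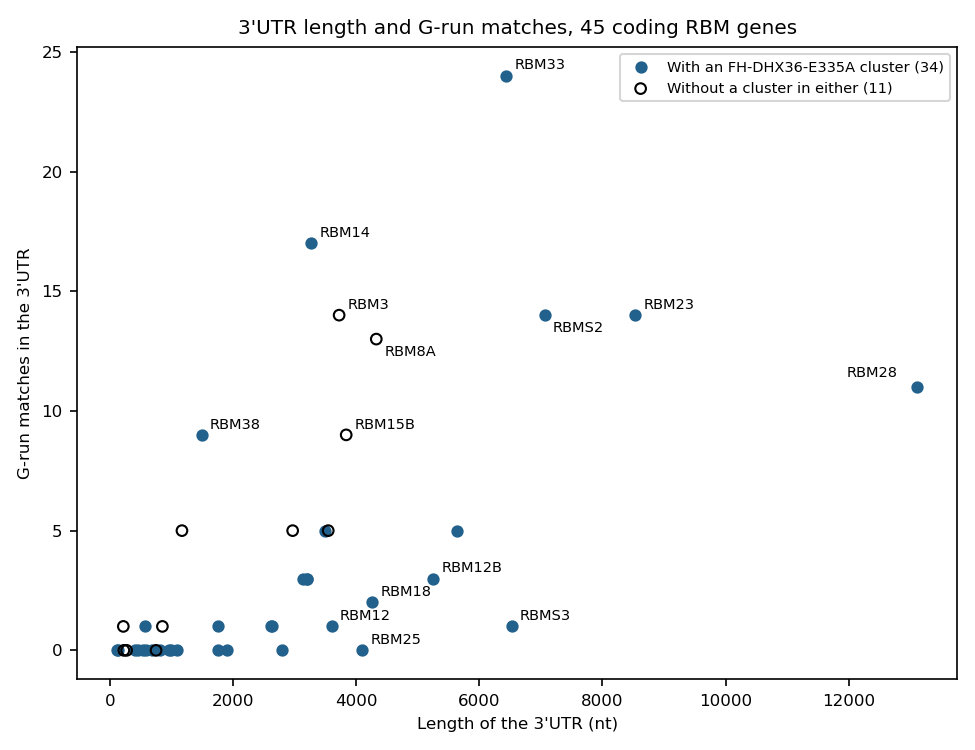
Length of the 3′UTR in nt (x axis) and number of G-run matches in it (y axis) for 45 coding RBM genes, filled where an FH-DHX36-E335A cluster was listed (34) and open where none was in either PAR-CLIP (11). RBM33 and RBM14 are highest, RBM12, RBM12B, RBM18 and RBM25 lie low for their length, and the unbound RBM3, RBM8A and RBM15B lie among the bound genes.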

How the data were processed

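PAR-CLIP was done by the authors in FH-DHX36 and FH-DHX36-E335A cells, with 2 samples per line. Reads were demultiplexed with bcl2fastq 2.17.1 according to the submitters' processing notes and mapped to hg19. Clusters were called with PARalyzer in PARpipe and annotated with GENCODE v19. The PARalyzer version is not given in the sources used here. Per gene and region, the authors deposited counts of clusters and of crosslinked reads, without normalization, and NXPM, a score of crosslinked reads scaled to the total (for a region, to that region's reads) and divided by RNA abundance plus 0.001. Columns hold combined replicates, so the depth per sample is unknown, and tests planned for replicates were not run.

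Abundance was recovered from reads and NXPM. Shares have Wilson intervals and ratios exact binomial intervals. Reads outside the UTRs, CDS and introns were taken as the difference to the total. Identifiers were matched to GENCODE 44 on GRCh37 for 22592 of 26490 rows, and 45 members had a canonical coding transcript, from which lengths, 25-nt words and G-run matches were computed. Computations used Python 3.11.15, pandas 2.3.3, NumPy 2.4.6, SciPy 1.17.1 and Matplotlib 3.10.9, and were tested on simulated data. Members, role groups, partner lists and pattern were chosen with earlier results of these data known. Values, though not of every region, were given for members chosen as follows. They were the 10 with most reads and the 5 with highest NXPM (abundance of at least 1) in each PAR-CLIP, and paralogs. Members with over 50% of exonic reads in the 5′UTR or CDS or mainly intronic reads were added. So were the 3 highest and 3 lowest ratios at 50 or more reads in each. RBM44, RBM7 and MAGOH were added after their values were seen.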

Additional observations from a re-analysis of the deposited data

How the results depend on the processing

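No paired analysis was possible because the deposited columns combine the replicates, and for the same reason no replicate could be left out. Numbers of members with a cluster and median NXPM moved within 1.5 times or within the binomial interval under every alternative tried. The family's percent of reads in FH-DHX36 was 1.10 in exonic reads, 0.589 without RBM12B, 0.555 in clusters and 0.426 without RBM12B and RBM17, which was chosen after seeing the data. In FH-DHX36-E335A it was 0.403 in exonic reads, 0.348 without RBM17, 0.473 in clusters and 0.288 without both. For FH-DHX36, the 5′UTR, CDS and 3′UTR percentages were 5.56, 62.5 and 31.9 in clusters, 0, 39.2 and 40.8 as medians over members, 4.30, 55.1 and 40.6 without RBM12B, and 6.17, 35.9 and 57.9 without RBM12B and RBM17. Over all reads the CDS and 3′UTR were 34.4 and 55.8. For FH-DHX36-E335A, they were 2.23, 40.2 and 57.6 in clusters, 0, 22.3 and 77.7 as medians, 0.474, 19.1 and 47.4 over all reads, and 0.833, 32.0 and 67.1 without both genes. With runs of at least 3 guanines, 4 bound FH-DHX36 members and 8 bound FH-DHX36-E335A members had a 3′UTR match, which is 17.4% and 23.5%, against 18.6% and 15.7% of all bound genes, so that the lower share of members seen with runs of 2 was not kept for FH-DHX36-E335A. Relative to the median ratio of all genes, 8 members were over 2 times higher in FH-DHX36. Higher by that factor in FH-DHX36-E335A were 3 in exonic reads and 3 in clusters. Shares over all genes were not computed under these settings, so that these counts cannot be read as a shift of the family. The exonic ratio covers 20 members, since RBM34, RBM7 and RBM4B had 0 exonic FH-DHX36 reads. RBM34 and RBM7 had 272 and 185 exonic FH-DHX36-E335A reads and thus left the count for want of a ratio. In clusters, the ratio turned to 0.514 for RBM18 and 1.20 for RBM4B. The cause of the other shifts was not tested. The 4.05 times lower depth of FH-DHX36 limits what can be said of the 11 members bound in FH-DHX36-E335A alone.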
